A study of Mus musculus with 20 samples.

Results

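CTCF peaks that lay away from transcript starts and carried no RAD21 peak were examined in untreated mouse embryonic stem cells (mESCs). They were chosen by 2 measured peak lists of WT cells and by the annotation: a peak of the CTCF list was kept when it overlapped no peak of the RAD21 list, by even 1 bp, and when its summit lay more than 1 kb from every transcript start of the GENCODE vM21 basic annotation. Of 26394 CTCF peaks in WT, 23515 were distal in this sense, and 7763 of the distal peaks (33.0%) had no RAD21 peak. These 7763 regions are called RAD21-free distal CTCF sites below, and the 15752 distal CTCF peaks that did overlap RAD21 serve for comparison. The name says only that no RAD21 peak was called there in 1 library.

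CTCF is a zinc finger protein that binds a long, directional DNA motif and acts as an insulator between chromatin domains. Cohesin is a ring complex that extrudes chromatin loops, and RAD21 is the subunit that closes the ring. In loop-extrusion models a moving cohesin stops where it meets CTCF in the right orientation, so that both proteins are found at the same sites, and MAZ is a zinc finger protein that binds G-rich promoter sequence and has been described as a further insulator.

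Peaks came from ChIP-seq of CTCF, RAD21 and MAZ in E14 mESCs grown with LIF and 2i, in which the CTCF protein bears a degron that lets auxin trigger its destruction. WT denotes these CTCF-degron cells without auxin, ΔCTCF the same cells after 2 days of auxin, ΔMAZ a Maz knockout made in the CTCF-degron cells (labelled B2) without auxin, and ΔCTCF/ΔMAZ the knockout after 2 days of auxin. The degron was thus present in all 4 conditions, and both knockout conditions carry the 1 label B2. Each antibody gave 1 list per condition, and a further CTCF and MAZ sample per condition came without a list. No comparison here thus had a replicate, no p-value is given, and intervals cover counting error over peaks only.

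The 12 lists together held 136043 peaks and gave no read totals. The local background at a summit can be solved from its fold enrichment together with its −log10 p, and had a median of 0.552 fragments in CTCF WT and 0.482 in CTCF ΔMAZ. For RAD21 it was 1.37 in WT, 1.77 in ΔMAZ, 3.38 in ΔCTCF and 1.28 in ΔCTCF/ΔMAZ. These medians are over different peaks in each list and are no measure of library depth, and the part of depth in any difference between lists was not tested.

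To show what these sites look like, the reference sequence (GRCm38, 101 bases centred on the summit) is given for the 5 strongest whose window lay outside annotated UTRs. Capitals mark the best match, with at most 1 mismatch, to the CTCF core, a 12-position stretch of the CTCF motif. Each is read on the strand of that match.
Site nearest Crebl2, chr6:134823002-134823102, plus strand: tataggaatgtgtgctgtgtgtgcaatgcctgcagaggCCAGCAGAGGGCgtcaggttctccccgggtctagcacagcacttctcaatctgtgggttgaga
Site nearest C330018A13Rik, chr5:116116643-116116743, plus strand: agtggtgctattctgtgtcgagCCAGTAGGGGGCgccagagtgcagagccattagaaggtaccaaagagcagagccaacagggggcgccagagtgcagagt
Intron of Thoc5, chr11:4900564-4900664, plus strand: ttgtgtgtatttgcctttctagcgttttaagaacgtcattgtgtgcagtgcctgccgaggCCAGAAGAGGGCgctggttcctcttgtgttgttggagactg
Site nearest Klhl8, chr5:103926556-103926656, plus strand: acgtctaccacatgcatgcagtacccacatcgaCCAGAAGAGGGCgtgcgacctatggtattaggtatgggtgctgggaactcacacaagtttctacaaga
Site nearest Pnmal2, chr7:16937445-16937545, plus strand: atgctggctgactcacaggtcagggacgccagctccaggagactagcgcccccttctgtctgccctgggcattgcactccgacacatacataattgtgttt
The last window held no match within 1 mismatch and is printed in lower case on the plus strand.

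For comparison, the same window is shown for the 3 strongest distal CTCF peaks with RAD21 under the same limit.
With RAD21, chr4:139611801-139611901, minus strand: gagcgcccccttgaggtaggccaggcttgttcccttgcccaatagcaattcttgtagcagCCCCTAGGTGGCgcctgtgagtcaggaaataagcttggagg
With RAD21, chr1:181888959-181889059, plus strand: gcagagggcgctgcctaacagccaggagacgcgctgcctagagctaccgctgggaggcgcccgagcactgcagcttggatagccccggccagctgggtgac
With RAD21, chr8:70629870-70629970, minus strand: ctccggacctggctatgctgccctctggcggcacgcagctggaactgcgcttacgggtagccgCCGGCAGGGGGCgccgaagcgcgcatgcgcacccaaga
CTCF fold enrichment was 69.9, 67.9 and 67.8 at these peaks, against 39.5 to 43.3 at the RAD21-free sites printed above. The window on chromosome 1 held no match within 1 mismatch and is likewise in lower case on the plus strand.

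RAD21-free distal CTCF sites were mostly weak CTCF peaks. Their fold enrichment at the summit had a median of 8.13 in WT (quartiles 6.66 and 11.8), and the distal CTCF peaks with RAD21 had a median of 16.2 (quartiles 11.1 and 22.6). The median pileup was 12 fragments against 25, while the median background was nearly equal, at 0.545 and 0.550 fragments. The peaks were also narrower, with a median width of 227 bp against 300 bp. A wider peak has more room to overlap another, and these values are given as a description.

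When all CTCF WT peaks were ranked by fold enrichment into 5 groups of equal size, the share of distal peaks without RAD21 fell from group to group. It was 69.5% (95% Wilson interval 68.1 to 70.8) in the weakest group, then 47.2%, 26.8% and 13.6%, and 5.98% (5.32 to 6.72) in the strongest. The strongest group still held 265 RAD21-free sites, each at a fold enrichment of 22.1 or more. Across all CTCF WT peaks, promoter peaks included, 33.7% had no RAD21 WT peak, and since the rule used that overlap nothing is read from this share.

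**Figure D1:**
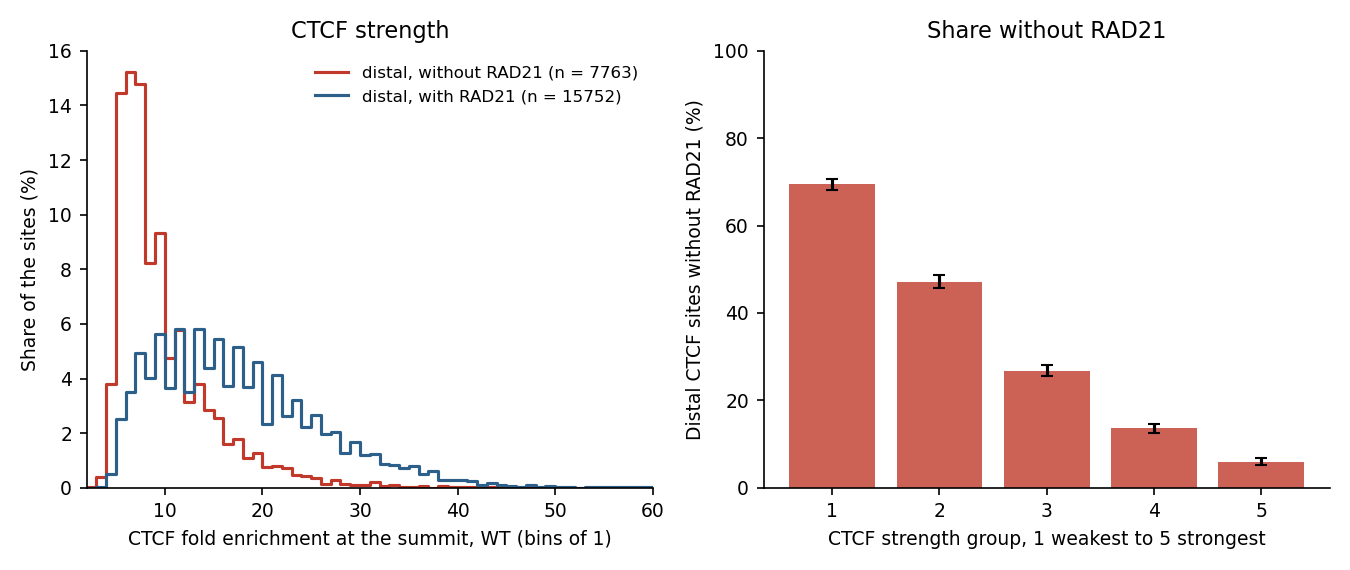
Left, share of sites (%) in each bin of CTCF fold enrichment in WT for the 7763 distal sites without RAD21 and the 15752 with RAD21. Right, share of distal CTCF sites without RAD21 (%) in 5 strength groups, bars with 95% Wilson intervals: it falls from 69.5% in group 1 to 5.98% in group 5.

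RAD21-free sites were not set far from cohesin. The median gap to the nearest RAD21 WT peak was 18401 bp (quartiles 6184 and 46961), 5.64% of the sites lay within 1 kb, 34.6% within 10 kb and 89.3% within 100 kb. Distal CTCF peaks with RAD21 had their next RAD21 peak, other than the one they overlapped, at a median of 18552 bp, with 35.2% within 10 kb and 89.2% within 100 kb. These pooled values mix sites of unlike strength.

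The gap was shorter at stronger sites. Its median was 20842 bp in the weakest strength group, 19699, 16621 and 14075 bp in the next 3, and 10278 bp in the strongest. The next RAD21 peak of sites with RAD21 followed the same order, at 27012, 24154, 20082, 18263 and 14033 bp. The median was thus the shorter one at RAD21-free sites in each group. These distances use the list that chose the sites, and they set a nearest peak beside a next one, so they are a description and no test is given.

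**Figure D2:**
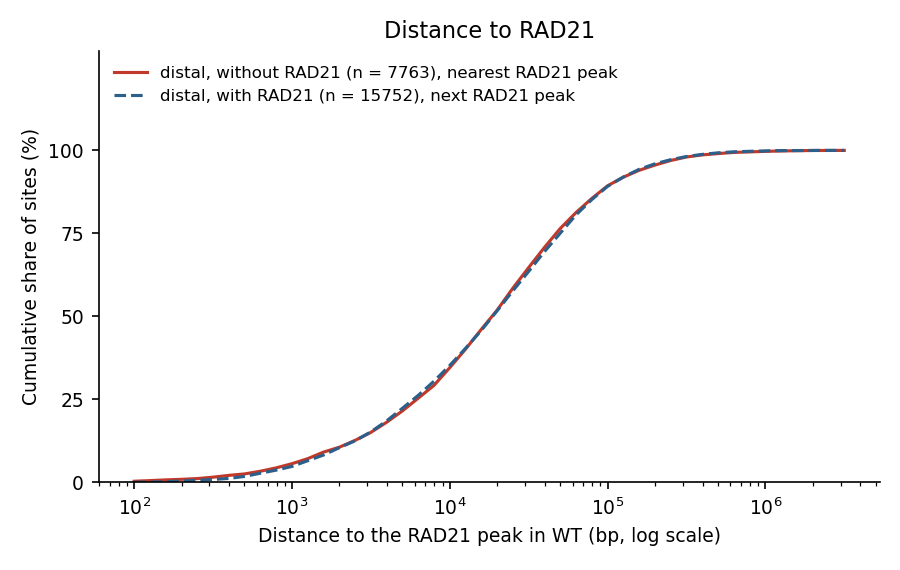
Cumulative share of sites (%) against the distance (bp, log scale) to the nearest RAD21 WT peak for RAD21-free distal CTCF sites, and to the next RAD21 WT peak for distal CTCF sites with RAD21. Pooled over all strengths the curves lie nearly on each other, with 34.6% and 35.2% of sites within 10 kb.

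The 5 sites farthest from RAD21 were weak to moderate CTCF peaks. An intronic site in Gm2956 at chr14:3333527-3333695 lay 4415772 bp from any RAD21 WT peak, with a CTCF fold enrichment of 7.99 in WT and 9.69 in ΔMAZ. Another 3 were on the X chromosome, 1810790 to 2578693 bp from RAD21, the strongest of them at chrX:65734575-65734866 with 14.6 in WT and 7.62 in ΔMAZ. The nearest of the 3, at chrX:63991238-63991419, had a RAD21 peak in ΔMAZ at 5.40. The remaining one, at chr4:37560263-37560529, had a fold enrichment of 4.71 in WT and no peak in the other 11 lists.

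Loss of MAZ left CTCF called at most RAD21-free sites. Of the 7763 sites, 5169 (66.6%, 65.5 to 67.6) overlapped a CTCF peak of ΔMAZ, where 85.5% of all CTCF WT peaks did so. Among distal peaks with RAD21 the share was 94.5%, so that RAD21-free sites differed from them by −27.9 points (−29.0 to −26.8). Within the strength groups the RAD21-free sites were called in 43.5%, 72.0%, 93.3%, 99.1% and 100% of cases from weakest to strongest, and the sites with RAD21 in 69.8%, 86.9%, 97.7%, 99.7% and 100%. The difference was −26.3 points (−29.1 to −23.3) in group 1 and −0.615 points (−1.71 to −0.0624) in group 4. Taken over the groups, the Mantel-Haenszel odds ratio of a call was 0.354 (0.322 to 0.388) for RAD21-free sites. At sites that were called, the CTCF fold enrichment in ΔMAZ had a median of 8.90 without RAD21 and 16.0 with it.

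Degradation of CTCF removed CTCF peaks from nearly all RAD21-free sites. In ΔCTCF 74 of the 7763 sites (0.953%, 0.760 to 1.19) still overlapped a CTCF peak, against 8.83% of all CTCF WT peaks and 12% of the distal peaks with RAD21. In ΔCTCF/ΔMAZ 68 sites (0.876%, 0.692 to 1.11) did so, against 9.58% of all CTCF WT peaks and 13.1% of the distal peaks with RAD21. Both lists called 36 of these sites, and 106 were called in at least 1 of them.

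The remaining peaks were mainly at strong sites. In the 3 weaker groups 0.272%, 0.310% and 0.311% of the RAD21-free sites were still called in ΔCTCF, in the fourth 2.49% and in the strongest 14.3% (10.6 to 19.1). The strongest group of sites with RAD21 kept a call in 31.9% (30.5 to 33.3), a difference of −17.6 points (−21.5 to −12.6) for RAD21-free sites. Over the 5 groups the odds ratio of a call in ΔCTCF was 0.271 (0.211 to 0.349) for RAD21-free sites against sites with RAD21, and for ΔCTCF/ΔMAZ it was 0.230 (0.177 to 0.298). Both sets still differed in strength within a group, with a median CTCF fold enrichment in WT of 25.2 (highest 45.3) without and 27.3 (highest 69.9) with RAD21 in the strongest, and the part of strength in these differences was not tested.

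RAD21 was called at a part of these sites in the Maz knockout cells. In ΔMAZ 1485 of the 7763 RAD21-free sites (19.1%, 18.3 to 20.0) overlapped a RAD21 peak, against 66.2% of all CTCF WT peaks and 89.8% of the distal peaks with RAD21. The share rose with CTCF strength in WT, from 9.85% (8.88 to 10.9) in the weakest group through 17.0%, 28.6% and 41.2% to 53.2% (47.2 to 59.1) in the strongest. Since the sites were selected for the absence of a RAD21 call in WT, a call in any other RAD21 library can only be an addition, and no gain of cohesin can be read from the share.

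These RAD21 peaks were weak. Their RAD21 fold enrichment in ΔMAZ had a median of 6.08 (quartiles 5.13 and 7.18), against 12.4 at distal CTCF sites with RAD21, and 45.0% (42.5 to 47.5) of them belonged to the weakest of 5 equal groups of the RAD21 ΔMAZ list, against 7.42% at sites with RAD21. They went together with CTCF. RAD21 was called in ΔMAZ at 25.5% (24.3 to 26.7) of the RAD21-free sites with a CTCF peak in ΔMAZ and at 6.44% (5.56 to 7.45) of those without one, and the median CTCF fold enrichment in WT was 9.99 and 6.66 in these groups. By the gap to RAD21 in WT, which the rule used, the share was 26.5% of sites up to 1 kb away, 20.9% between 1 and 10 kb, 18.2% between 10 and 100 kb and 15.4% beyond that. The median CTCF fold enrichment in WT was 8.53, 8.57, 8.37 and 7.32 in the same order, and its part in the shares was not tested.

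After degradation of CTCF, RAD21 was called at few RAD21-free sites. In ΔCTCF 180 sites (2.32%, 2.01 to 2.68) overlapped a RAD21 peak, against 27.9% of all CTCF WT peaks and 39.1% of the distal peaks with RAD21. RAD21 was called at 34 of the 74 sites that still had a CTCF peak in ΔCTCF (45.9%, 35.1 to 57.2) and at 146 of the 7689 that had none (1.90%, 1.62 to 2.23), and the median CTCF fold enrichment in WT was 22.4 and 8.09 in these groups. In ΔCTCF/ΔMAZ the count was 44 sites (0.567%, 0.423 to 0.760), against 15.9% of all CTCF WT peaks and 22.6% of the distal peaks with RAD21. The RAD21 ΔCTCF list had the highest median background of the 4 RAD21 lists, and its part in these calls was not tested.

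Of the RAD21-free sites, 20.1% (19.2 to 21.0) were called in at least 1 of the 3 RAD21 lists other than WT, against 67% of all CTCF WT peaks and 90.0% of the distal peaks with RAD21. The other 6202 sites (79.9%) were called in no RAD21 list of any condition, against 26.5% of all CTCF WT peaks, and 3791 (48.8%) combined this with a CTCF peak in both WT and ΔMAZ, against 16.5%. Another 2409 sites (31.0%) were called in CTCF WT and in none of the other 11 lists, against 9.97% of all CTCF WT peaks. The rule fixed the absence of RAD21 in WT, and the distal peaks with RAD21 were chosen for its presence. Nothing is therefore read from any share of this paragraph.

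**Figure D3:**
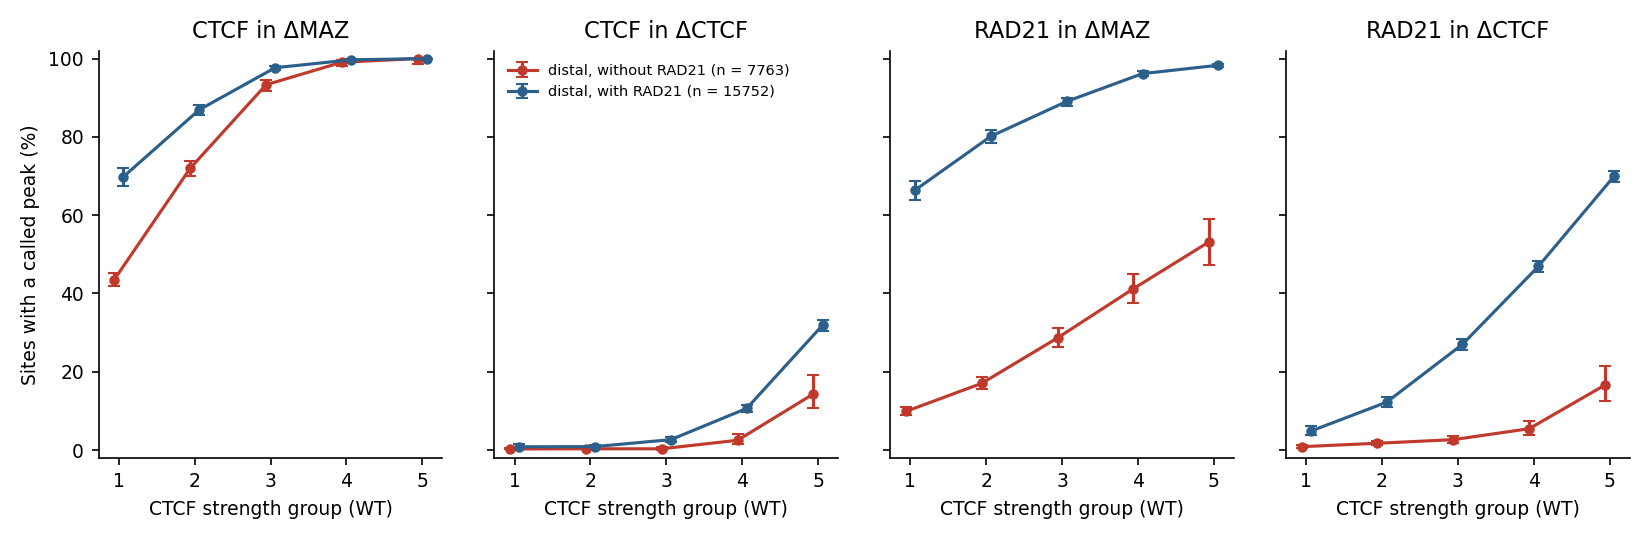
Share of sites with a called peak (%) against CTCF strength group in WT for CTCF in ΔMAZ and ΔCTCF and RAD21 in ΔMAZ and ΔCTCF, points with 95% Wilson intervals. RAD21-free distal sites lie below the sites with RAD21 in each group for RAD21, reaching 53.2% against 98.3% in ΔMAZ and 16.6% against 70.0% in ΔCTCF in the strongest group.

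The same rule was applied to the lists of the Maz knockout. There 7694 of 23205 distal CTCF peaks (33.2%, 32.6 to 33.8) had no RAD21 ΔMAZ peak, and over 5 groups ranked by fold enrichment in ΔMAZ the share was 76.0% in group 1 and 3.25% in group 5. Of these 7694 peaks, 66.1% overlapped a CTCF WT peak, 50.0% overlapped a RAD21-free site of WT and 18.7% overlapped a RAD21 WT peak. Seen from WT, 74.3% (73.1 to 75.5) of the 5169 sites with a CTCF ΔMAZ peak met the rule again in ΔMAZ.

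MAZ was rare at distal CTCF sites, with and without RAD21. MAZ peaks of WT overlapped 28 of the 7763 sites (0.361%, 0.250 to 0.521), against 1.82% of all CTCF WT peaks and 0.584% of the distal peaks with RAD21. Over the strength groups the odds ratio of a MAZ WT call was 1.19 (0.738 to 1.91), an interval that holds 1. MAZ peaks of ΔCTCF overlapped 22 sites (0.283%, 0.187 to 0.429), against 1.41% of all CTCF WT peaks and 0.419% of the distal peaks with RAD21, with an odds ratio of 0.775 (0.454 to 1.32), whose interval also holds 1. Of these 22 sites, 7 also had a RAD21 peak in ΔCTCF, which 2.32% of all RAD21-free sites had.

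The 10 strongest RAD21-free sites had CTCF fold enrichments of 38.6 to 45.3 in WT and lay 302 to 43888 bp from a RAD21 WT peak. All 10 had a CTCF peak in ΔMAZ, 6 in ΔCTCF and 5 in ΔCTCF/ΔMAZ. A RAD21 peak was called at 9 of the 10 in ΔMAZ, with fold enrichments of 4.63 to 14.9, and at 3 of them in ΔCTCF. In the strongest group as a whole, 53.2% of RAD21-free sites were called in RAD21 ΔMAZ and 16.6% in RAD21 ΔCTCF. CTCF was called at 100% of that group in ΔMAZ, 14.3% in ΔCTCF and 11.7% in ΔCTCF/ΔMAZ.

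The strongest site lay in a UTR of Trp53i13, a p53-induced gene, at chr11:77508054-77508405. CTCF fold enrichment there was 45.3 in WT, 54.7 in ΔMAZ and 8.89 in ΔCTCF, with no peak in ΔCTCF/ΔMAZ. RAD21 fold enrichment was 9.65 in ΔMAZ and 4.05 in ΔCTCF. The intergenic site near Crebl2, at chr6:134822913-134823210, was the only one of the 10 with its summit in a masked repeat. It had 43.3 in WT, 45.7 in ΔMAZ and 10.7 in ΔCTCF/ΔMAZ for CTCF, and RAD21 was called in ΔMAZ alone, at 4.63.

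Among the 10, the site nearest C330018A13Rik, at chr5:116116470-116116941, stood apart in its RAD21 values. CTCF was called in all 4 conditions, at 41.4 in WT, 35.9 in ΔMAZ, 16.3 in ΔCTCF and 11.8 in ΔCTCF/ΔMAZ. RAD21 was called in the 3 conditions other than WT, at 14.9 in ΔMAZ, 13.5 in ΔCTCF and 14.3 in ΔCTCF/ΔMAZ, and the nearest RAD21 WT peak was 6404 bp away. It was the only one of the 10 with RAD21 in ΔCTCF/ΔMAZ.

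Of the other strong sites, that in an intron of Thoc5, which encodes a subunit of the THO complex of mRNA export, had CTCF at 40.7 in WT and 37.9 in ΔMAZ and RAD21 at 6.72 in ΔMAZ. The site near Klhl8 at chr5:103926461-103926746 lay 643 bp from a RAD21 WT peak and had RAD21 at 10.0 in ΔMAZ and 5.24 in ΔCTCF. The site at chr10:69306240-69306597 lay 513 bp from a RAD21 WT peak and was the one site of the 10 with no RAD21 peak in ΔMAZ, although CTCF was called there at 39.2 in WT, 29.7 in ΔMAZ and 7.23 in ΔCTCF. The other 4 strong sites, near Pnmal2, in a UTR of Rsad2 (an interferon-induced antiviral gene), in an intron of Megf6 and in an intron of Sdsl, had RAD21 in ΔMAZ at 4.98 to 8.75.

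Among the 36 sites with a CTCF peak in both auxin conditions, the 5 strongest in WT were the sites near C330018A13Rik, in Megf6 and in Sdsl, an intergenic site nearest 1810010H24Rik and an intron of Diaph1, a formin that nucleates actin. At the Megf6 site CTCF was at 38.6 in WT, 10.8 in ΔCTCF and 13.8 in ΔCTCF/ΔMAZ. The 1810010H24Rik site had 36.0, 8.15 and 7.53 and no RAD21 peak in any condition. The Diaph1 site had 35.0, 7.87 and 8.52, with RAD21 at 7.85 in ΔMAZ and 5.15 in ΔCTCF. Fold enrichments of different lists have no shared scale, so no drop is read from these values.

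The highest RAD21 values in ΔMAZ were found at 5 sites of very different CTCF strength. At chr9:53751288-53751491 CTCF had a fold enrichment of 5.12 in WT and no peak in ΔMAZ, RAD21 reached 22.4 in ΔMAZ, and the nearest RAD21 WT peak was 10 bp away. At chr17:56255475-56255737, nearest Fem1a, CTCF was at 9.42 in WT, RAD21 at 19.8 in ΔMAZ, and the RAD21 WT peak 38 bp away. Both are thus neighbours of a RAD21 WT peak that the overlap of 1 bp just missed. An intronic site in Phex, at chrX:157373895-157374138, lay 80340 bp from RAD21 in WT and had RAD21 at 17.0 in ΔMAZ, 6.43 in ΔCTCF and 7.78 in ΔCTCF/ΔMAZ, with CTCF at 11.3 in WT and 18.7 in ΔMAZ. The other 2 were an intergenic site at chr13:9194703-9195022, with RAD21 at 17.8 in ΔMAZ and 602 bp from RAD21 in WT, and the C330018A13Rik site.

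A CTCF core, searched on both strands within 50 bp of the summit, was less frequent at RAD21-free sites. An exact match was found at 14.9% (14.1 to 15.7) of them and at 24.5% of the distal sites with RAD21, and with 1 mismatch allowed at 59.0% and 70.7%. Windows of the same length 500 bp to either side held an exact match in 0.174% of 15526 windows around RAD21-free sites and in 0.0857% around sites with RAD21. In the weakest group the exact match was found at 10.8% and 13.3% of sites, and in the strongest at 26.0% and 28.5%, where the difference of −2.44 points had an interval that holds 0 (−7.55 to 3.32). Over the groups the odds ratio of an exact match was 0.773 (0.712 to 0.839), and with 1 mismatch allowed it was 0.848 (0.795 to 0.906). With 1 mismatch the difference was −7.20 points (−10.2 to −4.13) in group 1 and 0.703 points (−2.04 to 3.44) in group 2.

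Base composition followed CTCF strength. The window held 49.3% ± 7.81 G and C (SD over 7763 sites) without RAD21 and 51.0% ± 7.21 (n = 15752) with RAD21, and 1.52 ± 1.68 against 2.00 ± 2.01 CpG dinucleotides. Within the strength groups the means nearly met, with 48.3% in both sets in the weakest group and 54.2% and 54.0% in the strongest.

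RAD21-free sites lay in masked repeats more often. The summit base was masked as a repeat in the reference at 2716 of the 7763 sites (35.0%, 33.9 to 36.1) and at 19.3% of the distal sites with RAD21, a difference of 15.6 points (14.4 to 16.9). At 500 bp to either side the shares were 26.2% and 25.7%. The surplus was thus at the summit, where RAD21-free sites were above and sites with RAD21 below their own surroundings. It held in each strength group, with 38.3% against 25.7% in group 1 and 21.5% against 15.2% in group 5, and with an odds ratio of 1.77 (1.65 to 1.90) over the groups. How many reads of each antibody could be placed in repeats was not tested.

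**Figure D4:**
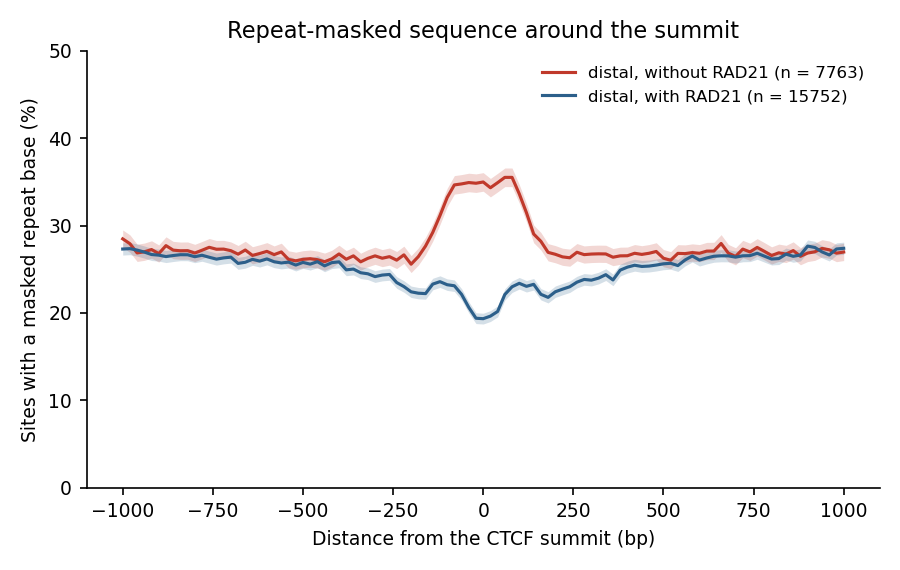
Share of sites (%) with a repeat-masked reference base against distance from the CTCF summit (bp), lines with 95% Wilson bands. RAD21-free distal sites rise to 35.0% at the summit, and distal sites with RAD21 fall to 19.3%, from about equal shares at 500 bp.

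Among the RAD21-free sites, those with a masked summit were called less often in the CTCF and RAD21 lists of ΔMAZ. CTCF was called in ΔMAZ at 61.8% of masked and 69.2% of unmasked sites, and RAD21 in ΔMAZ at 14.9% and 21.4%. Over the strength groups the odds ratios were 0.822 (0.737 to 0.918) and 0.730 (0.641 to 0.831). For CTCF in ΔCTCF it was 0.676 (0.375 to 1.22), an interval that holds 1, and for RAD21 in ΔCTCF 0.625 (0.435 to 0.899). Masked sites were slightly weaker in WT, with a median CTCF fold enrichment of 7.99 against 8.65. An exact core was found at 8.54% of masked and 18.3% of unmasked sites, and a core with at most 1 mismatch at 66.1% and 55.2%.

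A single string recurred at these sites. Among all 16-base strings in the windows of RAD21-free sites, read on either strand, the most frequent was gaggCCAGAAGAGGGC, found at 469 of 7763 sites (6.04%, 5.53 to 6.59), with capitals on the CTCF core match. It occurred at 4.28% of distal sites with RAD21 and in 0.0451% of the windows 500 bp away from RAD21-free sites. The string was chosen on the RAD21-free sites themselves, so its odds ratio of 1.35 (1.17 to 1.55) over the strength groups is a description. The summit was masked at 371 of the 469 sites (79.1%). CTCF was called in ΔMAZ at 69.9% (65.6 to 73.9) of the 469, near the 66.6% of all RAD21-free sites.

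The windows of the 3 strongest sites with a masked summit and this string are printed as examples, again with the core match in capitals. They were chosen for the string after it had been found, so their likeness there is set by the choice.
Intron of Calhm2, also within Pdcd11, chr19:47122944-47123044, plus strand: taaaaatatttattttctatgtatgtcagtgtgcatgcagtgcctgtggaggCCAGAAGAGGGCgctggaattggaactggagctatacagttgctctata
Intergenic, nearest Rasl11a, chr5:146893898-146893998, plus strand: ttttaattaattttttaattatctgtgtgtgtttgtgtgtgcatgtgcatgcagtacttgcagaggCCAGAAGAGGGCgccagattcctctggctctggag
Intron of Emc9, chr14:55582415-55582515, minus strand: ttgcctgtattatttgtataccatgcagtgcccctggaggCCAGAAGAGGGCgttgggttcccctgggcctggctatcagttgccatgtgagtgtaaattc
CTCF fold enrichment at these sites was 32.3, 31.3 and 28.0 in WT and 25.6, 24.6 and 22.2 in ΔMAZ. RAD21 was called in ΔMAZ at all 3, at 7.71, 6.13 and 5.40. It was called at 18.6% (15.3 to 22.3) of the 469 sites with the string. In the strongest CTCF strength group, to which all 3 belong, it was called at 53.2% of RAD21-free sites. The Rasl11a site also had CTCF in ΔCTCF at 8.15 and RAD21 in ΔCTCF at 7.62. In ΔCTCF/ΔMAZ it had CTCF at 9.43 and RAD21 at 6.87.

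Around the core, the commonest base was held by more of the masked than of the unmasked RAD21-free sites. The base itself was the same in both sets at 10 of the 14 flanking positions and at 10 of the 12 core positions, which are partly fixed by the search.
Masked summit, 1665 sites: tagaggCCAGAAGAGGGCatcagatc
Unmasked summit, 2606 sites: tagtggCCAGCAGGGGGCgctagatc
At masked sites the commonest base was shared by 63.5% of sites on average over the 14 flanking positions, and at unmasked sites by 38.3%. Distal sites with RAD21 and a masked summit (2128 sites) gave 62.2%, close to the masked RAD21-free sites.

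Where RAD21 was called at these sites in ΔMAZ, its summit lay mostly on the 3′ side of the CTCF core. Measured along the core from its centre, the RAD21 ΔMAZ summit lay at a median of 21 bp on the 3′ side at the 960 RAD21-free sites with a core within 1 mismatch, and 80.4% (77.8 to 82.8) of the summits were on that side. At distal sites with RAD21 the median was 20 bp in WT (85.4% on the 3′ side, 11129 sites) and 21 bp in ΔMAZ (88.3%, 10110 sites). At RAD21-free sites called in RAD21 ΔCTCF the median was also 21 bp, with a wider spread (quartiles −12 and 51.5 bp, 111 sites) and 67.6% (58.4 to 75.6) on the 3′ side, against 83.5% (82.4 to 84.5) of 4687 distal sites with RAD21, where the median was 21 bp and the quartiles 10 and 35 bp.

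**Figure D5:**
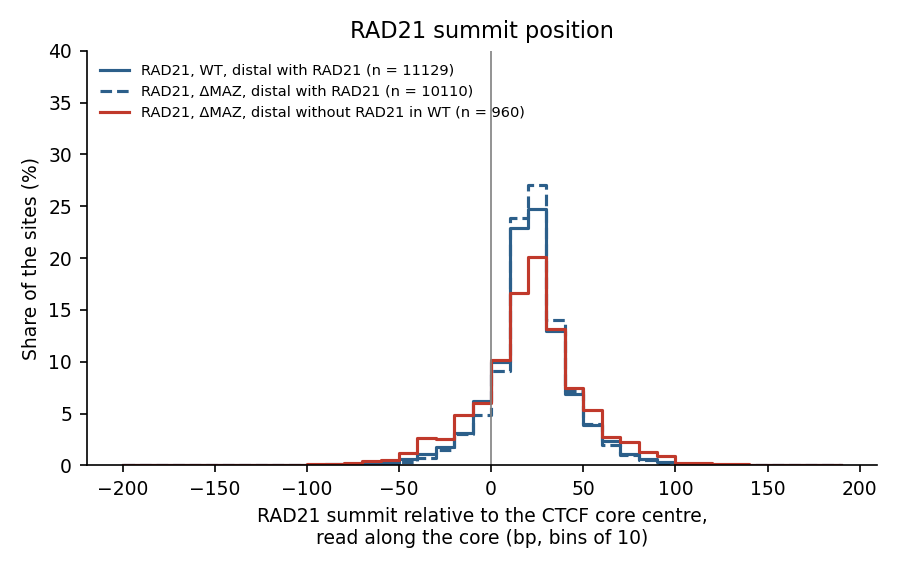
Share of sites (%) in bins of 10 bp of the distance from the CTCF core centre to the RAD21 summit, positive values on the 3′ side of the core, for distal sites with RAD21 in WT and ΔMAZ and for RAD21-free sites with a RAD21 peak in ΔMAZ. All 3 distributions are centred at 20 to 21 bp.

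No preferred orientation of the core towards neighbouring cohesin was detectable. The core, with at most 1 mismatch, was read at 4581 RAD21-free sites with a gap above 0. It pointed towards the nearest RAD21 WT peak at 50.5% (49.1 to 52.0) of them. Within 1 kb of a RAD21 peak the share was 50.0% (43.8 to 56.2, 248 sites).

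RAD21-free sites lay inside genes more often than distal sites with RAD21. Summits fell in introns at 52.7% and 44.1%, in coding exons at 2.77% and 1.56%, in UTRs at 1.91% and 2.33%, in non-coding exons at 0.876% and 1.04%, and between genes at 41.8% and 50.9%. Over the strength groups the odds ratio was 1.38 (1.29 to 1.46) for introns, 1.87 (1.51 to 2.33) for coding exons and 0.681 (0.640 to 0.726) for intergenic summits. The intron difference was 5.18 points (2.09 to 8.24) in the weakest group and 12.4 points (6.17 to 18.5) in the strongest. The distance to the nearest transcript start was alike, at a median of 12141 bp without and 12570 bp with RAD21.

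The 10 genes with the most such sites are described beside the 33.0% of all distal CTCF peaks that had no RAD21. The most were in Gm20388, an annotated gene that spans 4435 kb of chromosome 8 and had 52 RAD21-free sites among 123 distal CTCF peaks (42.3%). Dnah8, a heavy chain of axonemal dynein at chr17:30624354-30877365, had 17 among 23 (73.9%), with CTCF fold enrichments of 4.96 to 33.0, and 16 of the 17 were called in CTCF ΔMAZ and 1 in RAD21 ΔMAZ, against 66.6% and 19.1% of all RAD21-free sites. The non-coding AC174471.1 overlaps Dnah8 and had 19 among 26. Fry, at chr5:150118645-150497753, had 18 among 28 (64.3%), and 10 of the 18 were in masked repeats, against 35.0% of all RAD21-free sites.

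Camta1, a calmodulin-binding transcription activator, had 15 RAD21-free sites among 30 distal CTCF peaks, and the cell-surface protein gene Igsf21 had 9 among 11. Mtus2 had 9 among 19, the zinc transporter gene Slc39a11 had 9 among 16 and the kinase gene Cit had 8 among 9. The growth factor receptor gene Fgfr2 had 9 among 35 (25.7%). In Cit, at chr5:115845278-116008947, 1 RAD21 WT peak was called in the 164 kb of the gene and none of its 8 RAD21-free sites was called in RAD21 ΔMAZ, too few sites to set against the 19.1% of all RAD21-free sites. In the other genes RAD21 was called in ΔMAZ at 12 of 52 sites in Gm20388, 4 of 15 in Camta1, 4 of 9 in Igsf21 and 3 of 9 in Fgfr2. It was called at 3 of 18 in Fry, 1 of 19 in AC174471.1, and 1 of 9 each in Mtus2 and Slc39a11. Genes were ranked by their number of RAD21-free sites, so the shares are a description.

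The share of distal CTCF peaks without RAD21 was between 28.4% and 34.9% on the autosomes other than chromosome 5. On chromosome 5 it was 39.0% (36.9 to 41.2, 751 of 1925 peaks), and on the X chromosome 40.5% (36.3 to 44.9, 199 of 491). On the Y chromosome 15 of 16 distal peaks had no RAD21. Chromosome 5 was not uniform: the share was 31.9% (28.3 to 35.8) before 100 Mb and 42.2% (39.6 to 44.9) from there on, where 259 of 561 RAD21-free sites lay in masked repeats, against 59 of 190 before. The median solved background was 0.574 fragments in the later stretch and 0.545 in the earlier one.

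At a set of 19 loci of developmental, imprinted, pluripotency and insulator genes, each with 50 kb to either side, 35 of 89 distal CTCF peaks were RAD21-free (39.3%, 29.8 to 49.7), an interval that holds the 33.0% of all distal CTCF peaks, and 11 of the loci held at least 1. Of the 35 sites, 29 were called in CTCF ΔMAZ (82.9%, 67.3 to 91.9) and 10 in RAD21 ΔMAZ (28.6%, 16.3 to 45.1), against 66.6% and 19.1% of all RAD21-free sites. HoxA had 4 distal CTCF peaks and none without RAD21, while HoxB had 3 of 9 and HoxD 3 of 6, at fold enrichments of 7.85 to 18 and 8.09 to 14.9. All 6 were among the sites called in CTCF ΔMAZ, and 3 of them among those called in RAD21 ΔMAZ. At the imprinted loci, Kcnq1 and Cdkn1c had 5 of 13, Igf2 and H19 had 2 of 3, and Dlk1 with Meg3 and Peg3 with Usp29 had 1 each. Around Pou5f1, which encodes OCT4, 5 of 9 were RAD21-free, the strongest at 23.5, and around Nanog 1 of 4. The locus of Ctcf itself held 8 of 12, at 4.36 to 10.7, that of Maz 3 of 4 and that of Lefty1 3 of 7. HoxC had 1 distal CTCF peak and Sox2, Klf4, Shh and the Xist and Tsix locus had 2 each, all with RAD21. The loci of Myc and Rad21 had no distal CTCF peak and could hold no such site.

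The thresholds of the rule cut through similar peaks. The member nearest to a transcript start lay 1003 bp from that of Gm572, at chr4:148644164-148644488, with a CTCF fold enrichment of 22.3, and the peak without RAD21 that was left out by the smallest margin lay 999 bp from the start of Gm27733, within Tsix at chrX:103460153-103460388, with 15.3. The member nearest to RAD21, in an intron of Ttn at chr2:76970609-76970771, touched a RAD21 WT peak with a gap of 0 bp and had a CTCF fold enrichment of 5.33. The distal peak with the smallest overlap, in an intron of Pde4d at chr13:109548076-109548251, shared 19 bp with a RAD21 WT peak and had 5.99.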

How the data were processed

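Per the labels, chromatin of E14 CTCF-degron mESCs was immunoprecipitated with Drosophila chromatin added as spike-in, and reads were mapped to mm10 with Bowtie2. The authors called narrow peaks with MACS in each library separately. Whether an input control was used is not given in the sources used here. Spike-in scaling did not enter the lists. Of 20 samples, 12 came with a list. The other 8 were not analysed here.

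Each deposited list holds a score (10 times the −log10 q-value, used for no result), a fold enrichment at the summit, −log10 p and −log10 q values, and the summit offset. Fold enrichment as deposited is the ratio of summit pileup to background after 1 is added to both, and it ranked peaks inside a library. It has no scale shared between libraries. The −log10 p that the authors deposited was used with it to solve the pileup, and the deposited −log10 q as an alternative threshold.

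A peak was called in another list when they overlapped by at least 1 bp, checked against bedtools 2.31.1. Strength groups are 5 equal groups of CTCF WT fold enrichment. Intervals are 95% Wilson intervals, or Newcombe intervals for differences, and odds ratios are Mantel-Haenszel over the groups. Sequence and repeat masking (lower case) came from RefSeq GRCm38.p6, and transcripts from GENCODE vM21 basic. Calculations used Python 3.11.15, numpy 2.4.6, pandas 2.3.3 and scipy 1.17.1, and overlap, distance, core and odds ratio functions were tested on simulated data. The named sites are the 10 strongest, the 5 strongest called in both auxin CTCF lists, the 5 with the highest RAD21 ΔMAZ fold enrichment, the 5 farthest from RAD21, the sites at each threshold, the 10 genes with most sites and the 19 loci. Sites, lists and rules were chosen with earlier results of these data known.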

Additional observations from a re-analysis of the deposited data

How the results depend on the processing

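No paired analysis was possible because no antibody had more than 1 list in a condition. Under 11 alternative settings, 63 values were recomputed. Of these, 50 stayed within the interval of the reported value (counts within a factor of 1.5) and 13 moved. A change of direction was defined for the odds ratio alone, and 0 of its alternatives changed direction. Requiring a −log10 q of at least 5 in every list moved the median fold enrichment from 8.13 to 8.66, the median distance to RAD21 from 18401 to 19456 bp, the share called in CTCF ΔMAZ from 66.6% to 63.1% and the share with a core from 14.9% to 15.7%. A reciprocal overlap of 50% gave a share without RAD21 of 34.8%, a median distance of 16587 bp and 65.0% called in CTCF ΔMAZ. A gap of up to 500 bp counted as overlap gave 32.2%, 19524 bp and 2.96% called in RAD21 ΔCTCF, in place of 33.0%, 18401 bp and 2.32%. With sites more than 1 kb from RAD21 the median distance was 20712 bp. The core was found at 16.8% with 100 bp to each side and at 59.0% with 1 mismatch. These settings change which peaks or letters count, by construction. The odds ratio of a call in ΔCTCF stayed between 0.239 and 0.290 over its alternatives, and the share called in RAD21 ΔMAZ was 18.4% when that list was held to the size of RAD21 WT. Read totals were not used, so a site without a RAD21 call may hold RAD21 below the detection limit of that library.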
